A study of Mus musculus with 14 samples.

Results

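The genes described are 10 immediate early genes, namely Fos, Fosb, Fosl1, Jun, Junb, Egr1, Egr2, Egr3, Egr4 and Ier2. They were chosen by name, with Egr1 among them because the study used it as an example, and all 10 were found among the 21938 protein-coding genes considered. For each gene, the sites of the deposited H3K27me3 list that overlapped its body or the 1 kb on either side of a transcription start site were looked up, together with the distance and width of the nearest site. A site is a stretch of the genome called as enriched in H3K27me3 ChIP-seq. The cells were iMEF, immortalised mouse embryo fibroblasts, in which exon 4 of Ash2l had been deleted through Cre-ER and which depended on a lentivirally delivered human ASH2L fused to an FKBP degradation tag and an HA tag. The ChIP-seq was done on NG3 cells, per the study. These are a single clone of an immortalised line. The 12 H3K27me3 libraries came from a control without dTAG and from cells exposed to dTAG-13, a PROTAC that leads to degradation of the tagged protein, for 30 min, 2 h, 4 h, 8 h or 16 h, with 2 libraries in each of the 6 groups. A further 2 libraries were input chromatin, of the control and of the 16 h exposure. All groups shared the Ash2l deletion and the tagged protein. The 153983 listed sites are from the first of 2 H3K27me3 experiments of the study. They form a single set over all samples and carry no value for any library. No comparison between control and treated cells was therefore made, there are no replicates behind the values below, and the read depth at each site is unknown. A gene without a site is a gene where none was called, which is not a measurement that the mark was absent.

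Immediate early genes are switched on within minutes by growth factors, stress or depolarisation, without new protein synthesis. The serum response factor SRF with its ternary complex partners acts on them through the CArG box, and CREB family proteins act through the cyclic AMP response element (CRE). FOS and JUN family proteins form the dimeric factor AP-1 by way of leucine zippers, EGR proteins bind GC-rich DNA with zinc fingers, and IER2 is a small nuclear protein. H3K27me3 is set by Polycomb repressive complex 2 and is known for its presence on CpG-rich promoters of silent developmental genes.

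Sites at start sites were listed for 3 of the 10 genes, Fos, Egr3 and Egr4. Fosb and Egr1 had a site in the gene body but none within 1 kb of a start site, and Fosl1, Jun, Junb, Egr2 and Ier2 had neither. To show what the sequences at these 2 ends of the range look like, the 250 bases before a start site are printed for Fos and Egr4, which had sites, and for Jun and Egr2, which had none. They are from RefSeq (GRCm38.p6), written along the direction of transcription, with the CRE core (TGACGT on either strand) and the CArG box in capitals. Sequence beyond these 250 bases was not searched, so a gene with no motif marked may have one farther from its start. The stretches are chr12:85473640-85473889 on the plus strand for Fos, chr6:85513590-85513839 on the minus strand for Egr4, chr4:95052223-95052472 on the minus strand for Jun, and chr10:67537619-67537868 on the plus strand for Egr2, the last before an internal start of that gene.
Fos promoter: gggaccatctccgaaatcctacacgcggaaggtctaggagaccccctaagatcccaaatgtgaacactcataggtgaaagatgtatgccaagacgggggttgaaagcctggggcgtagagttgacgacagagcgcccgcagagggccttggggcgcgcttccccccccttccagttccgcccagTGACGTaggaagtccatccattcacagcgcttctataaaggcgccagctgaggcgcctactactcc
Egr4 promoter: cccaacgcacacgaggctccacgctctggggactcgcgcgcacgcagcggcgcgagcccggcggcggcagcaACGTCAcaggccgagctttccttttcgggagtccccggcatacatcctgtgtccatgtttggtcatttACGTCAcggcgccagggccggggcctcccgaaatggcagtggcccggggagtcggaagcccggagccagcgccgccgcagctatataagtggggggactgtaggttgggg
Jun promoter: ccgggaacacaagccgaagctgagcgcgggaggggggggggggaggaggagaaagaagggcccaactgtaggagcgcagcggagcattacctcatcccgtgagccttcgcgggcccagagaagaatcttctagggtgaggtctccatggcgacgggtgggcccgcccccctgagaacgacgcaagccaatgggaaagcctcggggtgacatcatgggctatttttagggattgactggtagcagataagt
Egr2 promoter: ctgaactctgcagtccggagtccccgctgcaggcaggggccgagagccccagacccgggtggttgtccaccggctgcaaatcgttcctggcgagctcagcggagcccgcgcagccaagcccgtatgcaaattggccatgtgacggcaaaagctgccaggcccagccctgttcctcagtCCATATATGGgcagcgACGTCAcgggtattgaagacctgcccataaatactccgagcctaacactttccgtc
All 250 printed bases of the Egr4 promoter lay under its H3K27me3 site, and 0 of those of Fos, Jun and Egr2 lay under any site.

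Of the genes searched, 6 were found in the promoter table, with 10 entries (Fos, Fosb, Jun, Junb, Egr4 and 5 entries of Egr2). The Egr4 promoter held 2 CRE cores. The Fos promoter held 1 CRE core and 1 TATA motif (TATAAA), and the printed Egr2 promoter held 1 CRE core and 1 CArG box. The Egr2 entry nearest the gene start (chr10:67535249-67535498) held 0 CRE cores and 0 CArG boxes. That at chr10:67537316-67537565 held 0 CRE cores. No CRE core was matched in the windows of Jun, Junb and Fosb, and the Fosb window held 1 EGR motif (GCGNGGGCG). Over all 32851 promoters of the same 250 bp, searched on both strands, 6.47% held the CRE core, 1.47% the CArG box, 12.4% the TATA motif and 4.70% the EGR motif. A CRE core was thus matched at genes with a site in the start window (Fos and Egr4). It was also matched at a gene without one (Egr2), there only in overlapping windows before internal starts.

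All 5 genes with a site in the body had coding sequence under it, and the sites of Fosb and Egr1 were wholly coding. To show this, the whole site of Fosb (chr7:19304893-19305110, minus strand) and a stretch of 240 bases from the site of Fos (chr12:85475576-85475815, plus strand) are printed from GRCm38.p6 along the direction of transcription, with every CG dinucleotide in capitals.
Fosb site: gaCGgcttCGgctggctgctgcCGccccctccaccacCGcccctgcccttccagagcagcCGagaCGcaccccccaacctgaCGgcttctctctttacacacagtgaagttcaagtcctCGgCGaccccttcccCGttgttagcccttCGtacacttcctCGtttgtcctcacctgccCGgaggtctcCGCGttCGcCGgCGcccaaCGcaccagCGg
Fos site, inner stretch: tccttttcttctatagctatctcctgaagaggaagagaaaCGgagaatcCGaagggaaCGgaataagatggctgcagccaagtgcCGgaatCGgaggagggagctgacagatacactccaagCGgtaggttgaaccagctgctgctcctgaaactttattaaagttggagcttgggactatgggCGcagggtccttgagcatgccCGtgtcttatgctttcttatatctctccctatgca
The Fosb site held 20 CpGs in 218 bp, all of it coding sequence. The Fos stretch held 8 CpGs, and its 108 coding bases include those for the basic region of the FOS bZIP domain, which contacts DNA.

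**Figure D1:**
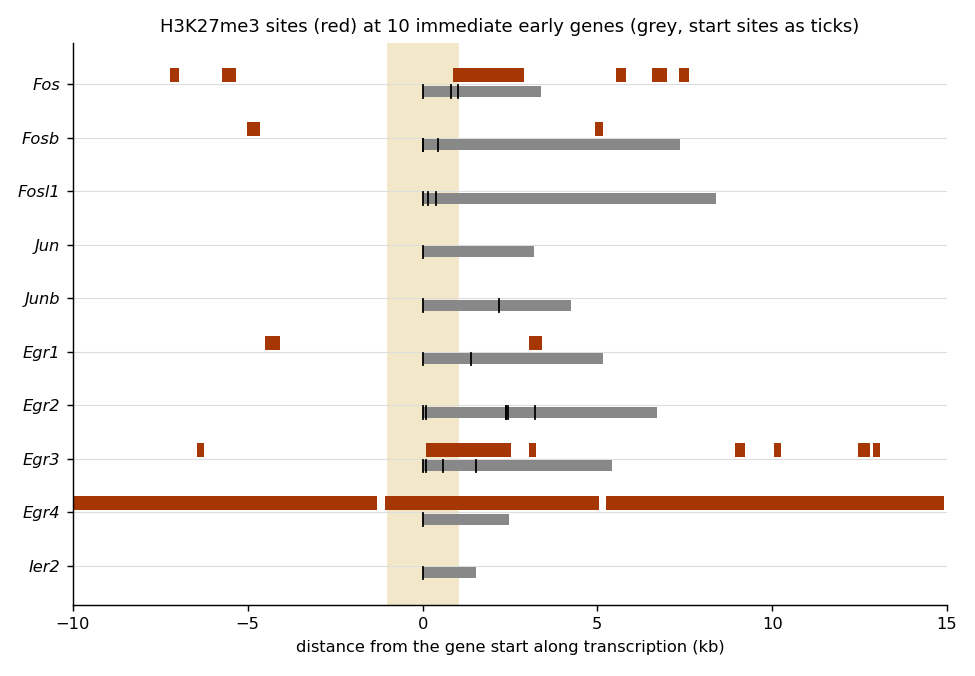
Each row is a gene, with its body in grey, its annotated start sites as black ticks and the listed H3K27me3 sites in red, against the distance from the gene start along transcription in kb; the shaded band marks 1 kb on either side of the gene start. Egr4 is covered from end to end, the wide sites of Fos and Egr3 begin after the gene start, Fosb and Egr1 hold narrow sites far into the body, and Fosl1, Jun, Junb, Egr2 and Ier2 have no site between 10 kb upstream and 10 kb downstream of the gene start.

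The count of 3 in 10 genes with a site at a start site stood beside 31.5% of all protein-coding genes (6912 of 21938, Wilson 95% interval 30.9 to 32.1%). For the gene body, the count was 5 in 10 beside 46.7% (10244 genes, 46.0 to 47.4%). Immediate early genes are short, with lengths between 1522 and 8400 bp and a median of 4698 bp, whereas the median over all protein-coding genes was 17425 bp. Among the 7774 genes of up to 10 kb, 31.7% had a site in the body (2467 genes, 30.7 to 32.8%), against the same 5 in 10. A site of at least 2 kb reached the start window of 16.1% of all genes (3531 genes, 15.6 to 16.6%), and of the same 3 immediate early genes. The count of genes with a site of any width at a start site was near the background, while that with a site of at least 2 kb was above it, and with 10 genes a difference of this size cannot be resolved. The intervals cover the counting of genes only.

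The FOS family genes code for partners of JUN proteins in AP-1 and differed among themselves. Fos (chr12:85473890-85477273, plus strand, 3384 bp) carried a site of 2046 bp at chr12:85474746-85476791. It began 856 bp after the gene start and ended 2901 bp after it, so the first part of the gene and the promoter lay outside it. The site covered 60.5% of the gene body, of which 999 bp were coding, 525 bp untranslated exon and 522 bp intron. On either side of this site, 5 narrow sites of 270 to 438 bp lay within 10 kb of the gene start, 395 and 270 bp wide upstream and 287, 438 and 275 bp wide downstream. Between the nearest upstream site and the site in the gene, 6204 bp around the Fos start were free of sites.

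Fosb (chr7:19302696-19310051, minus strand, 7356 bp) held the narrow site printed above, 4941 to 5158 bp after the gene start. This site covered 2.96% of the body, and a further site of 370 bp lay 4659 bp upstream. No wider site was near, since the nearest of at least 500 bp was 22561 bp from a start site, in Rtn2, and the nearest of at least 1 kb was 28024 bp away, in Ppm1n. Within 500 kb, however, sites covered 22.8% of the sequence, above the upper quartile of 16.7% over all genes.

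Fosl1, which codes for the AP-1 subunit FRA1 (chr19:5447547-5455946, plus strand, 8400 bp), had no site within 10 kb. The nearest site, 630 bp wide in Cfl1 and Snx32, was 45327 bp from a start site, and 85.2% of all protein-coding genes had a site as near or nearer. In all, 92415 bp around the gene start were free of sites. The nearest site of at least 1 kb, 8760 bp wide, lay in Ovol1 at 107688 bp.

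Neither JUN family gene had a site in its body or within 10 kb. Jun (chr4:95049034-95052222, minus strand, 3189 bp) codes for the central AP-1 subunit and had a single site of 200 bp, the smallest width in the list, 16270 bp upstream. Downstream of the start the first site, also of 200 bp, was at 119394 bp. The wider surroundings of Jun were nearly free of sites. Within 500 kb, 11 sites covered 0.271% of the sequence, while over all genes the quartiles of the site number were 36 and 119. The nearest site of at least 500 bp was 671744 bp from the Jun start, and the nearest of at least 1 kb was 2576119 bp away.

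Junb (chr8:84974484-84978718, minus strand, 4235 bp) codes for a JUN protein with weaker activation of AP-1 targets. Its nearest site, of 767 bp in Rtbdn, was 23711 bp from a start site, and next to it lay a site of 8563 bp, also in Rtbdn, at 24835 bp. Sites covered 27% of the 50 kb on either side of the Junb start, above the upper quartile of 14.9% over all genes, and 0% of the 10 kb, while over 500 kb the share was 6.94%, below the median of 7.86%. The gene thus sat in a gap of 55563 bp without sites beside densely covered sequence. At Jun the nearest site was closer, but there was only that 1 site in the 50 kb on either side.

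The EGR family spanned the full range. Egr4 (chr6:85511121-85513589, minus strand, 2469 bp) lay wholly inside a site of 6119 bp at chr6:85508554-85514672, which reached from -1083 to 5035 bp relative to the gene start. Of this site, 1434 bp were coding, 714 bp untranslated exon, 321 bp intron and 3650 bp lay outside the gene. Sites covered 97.8% of the 10 kb, 80.1% of the 50 kb and 24.8% of the 500 kb on either side. The neighbouring sites were a stretch of 9665 bp that overlapped Fbxo41, a gene for an F-box protein, and one of 11889 bp that began 1295 bp upstream of Egr4. When sites closer than 1 kb were joined, 11 sites formed a stretch of 73293 bp over Egr4 and Fbxo41, 95.3% of it covered.

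Egr3 (chr14:70077203-70082614, plus strand, 5412 bp) carried a site of 2426 bp at chr14:70077314-70079739, beginning 111 bp after the gene start, and one of 208 bp in untranslated exon sequence, 3041 bp after the gene start. Together they covered 48.7% of the body. The wide site held 1038 bp of coding, 382 bp of untranslated and 1006 bp of intron sequence. Unlike at Egr4, the neighbours of the Egr3 site were narrow, with a nearest upstream site of 200 bp at 6265 bp, and 13 sites covered 8.03% of the 50 kb on either side.

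Egr1 codes for a zinc finger factor induced by serum and growth factors. From signal tracks, the study described more H3K27me3 in its promoter region at late times. The list used here holds no signal and cannot show such a change. The gene (5162 bp, plus strand) had a site of 354 bp, chr18:34862873-34863226, that lay wholly in coding sequence, 3050 to 3403 bp after the gene start. It covered 6.86% of the body and was 1666 bp from the nearer of the 2 start sites, and 35.5% of all genes had a site as near or nearer. Upstream, the nearest site was 426 bp wide at 4075 bp, so that 7124 bp around the gene start were free of sites. The nearest site of at least 500 bp, 1168 bp wide, was downstream and overlapped no protein-coding gene, 16054 bp from a start site.

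Egr2 (chr10:67535475-67542188, plus strand, 6714 bp), a factor known for its role in hindbrain and Schwann cells, was the farthest of the 10 genes from a site, at 145790 bp. In all, 463936 bp around its start were free of sites. The sequence around Egr2 occurs again in the assembly. The 46714 bases around Egr2 (the gene and 20 kb on either side) were identical, over 46714 aligned bases, to a patch sequence of 425386 bp that is part of GRCm38.p6. The matching stretch of the chromosome, chr10:67228314-67653670, held 0 sites, whereas the flanks of the same length held 12 and 10 sites, covering 1.31% and 0.920%. Sites were listed on 18 patch sequences, but whether the patch with Egr2 was among them was not looked up. The part of this copy in the missing sites at Egr2 was not tested. No other of the 10 genes had such a copy within 10 kb of it, at an identity of at least 99.9% over at least 1000 bases.

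Ier2 (chr8:84661331-84662852, minus strand, 1522 bp) was the shortest gene. Its nearest site, 353 bp wide in Nacc1, was 17471 bp from the start, and the nearest of at least 500 bp was 60985 bp away, in Cacna1a. Within 500 kb, 86 sites covered 9.53% of the sequence, above the median of 7.86% over all genes.

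**Figure D2:**
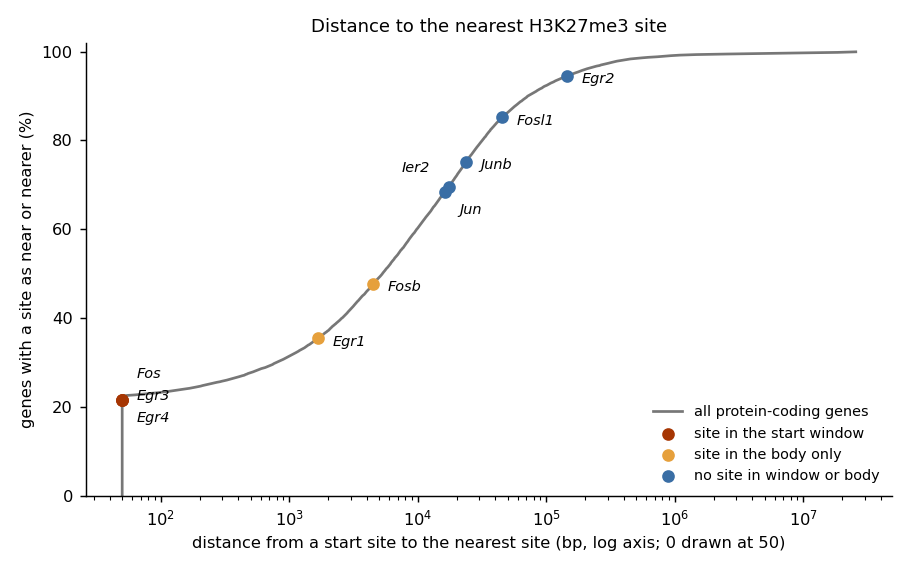
The grey line gives the share of all protein-coding genes with a site as near or nearer, in %, against the distance from a start site to the nearest site in bp on a log axis, and the points are the 10 genes, coloured by whether a site lay in the start window, only in the body or in neither. Fos, Egr3 and Egr4 sit at 0 bp, Egr1 and Fosb at 1666 and 4490 bp, and the other 5 genes between 16270 and 145790 bp.

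In the order of distance from a start site, Fos, Egr3 and Egr4 were at 0 bp and were followed by Egr1 (1666 bp), Fosb (4490 bp), Jun (16270 bp), Ier2 (17471 bp), Junb (23711 bp), Fosl1 (45327 bp) and Egr2 (145790 bp). The median was 10380 bp, beside 5288 bp over all genes, with quartiles of 221 and 23497 bp. The 0 bp of Fos came from an internal start site, since its site was 856 bp from the gene start, and that of Egr3 was 111 bp from the gene start. Without Egr2, a choice made after its copy was seen, the median was 4490 bp. Jun, Ier2 and Junb lay close together in this order, at 68.3%, 69.6% and 75.2% of all genes as near or nearer. There is no spread over samples by which to separate such neighbours. Fos and Egr3 were alike in several measures. Each had a wide site of over 2 kb that began downstream of the gene start, with narrow sites around it. Listed sites covered 60.5% and 48.7% of their bodies, at Egr3 with a narrow site of 208 bp included. Fosb and Egr1 were alike too, each with a single narrow and wholly coding site in the body (218 and 354 bp) and a nearest upstream site at 4659 and 4075 bp.

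**Figure D3:**
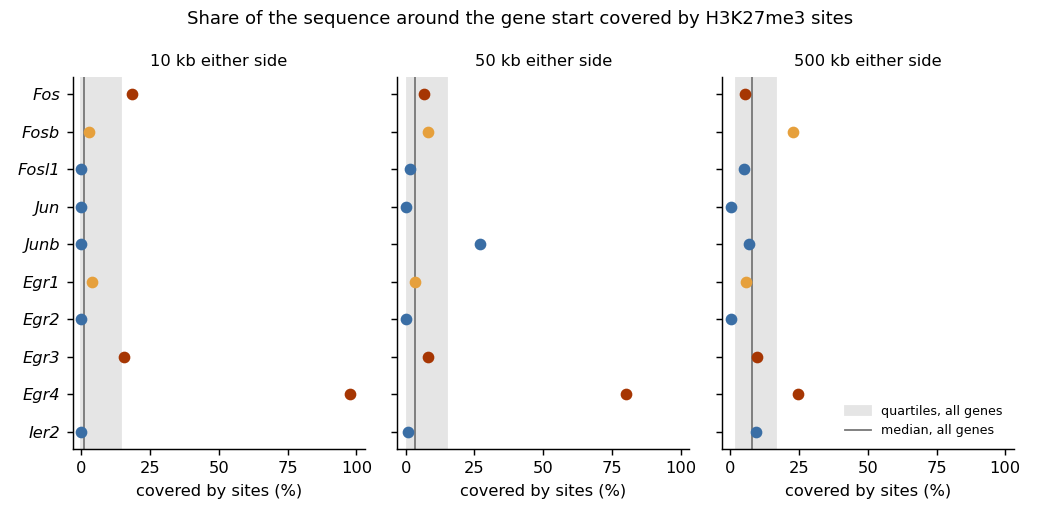
The 3 panels give the share of sequence covered by H3K27me3 sites, in %, in the 10 kb, 50 kb and 500 kb on either side of the gene start, with 1 point a gene, the quartiles over all protein-coding genes as a grey band and their median as a line. Egr4 is at 97.8% and 80.1% in the first 2 panels, Junb rises from 0% at 10 kb to 27% at 50 kb and is at 6.94% at 500 kb, and Jun and Egr2 stay under 0.5% in all 3.

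The covered share of the 10 kb on either side of the gene start had a median of 1.47% over the 10 genes and of 1.16% over all genes, with an upper quartile of 14.5%. Egr4, Fos (18.6%) and Egr3 (15.6%) were above this quartile. Egr1 (3.90%) and Fosb (2.94%) were below it, and the other 5 genes were at 0%.

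CpG content was high at nearly all of these genes, whether or not a site was listed. Within 500 bp of the gene start, by a GC content of at least 50% and an observed to expected CpG ratio of at least 0.6, 9 of the 10 promoters were CpG-rich. Egr1, at 55.6% GC and a ratio of 0.54 with 42 CpGs, was the exception. Of the 9 CpG-rich genes, 3 had a site at a start site, beside 23.4% of the 2278 CpG-rich genes of up to 10 kb (533 genes, 21.7 to 25.2%).

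The promoter ratios of Fos, Egr3 and Egr4 were 0.73, 0.79 and 0.84. Those of the CpG-rich genes with no site at a start site ran from 0.66 at Fosl1 and Egr2 to 0.84 at Fosb, so the ranges overlapped. Over the body, Egr4 had the highest GC content (68.3%) and Fosl1 the lowest CpG ratio (0.36), while Ier2 and Jun, with no site, had ratios of 0.82 and 0.78. The sites themselves differed in this measure. The CpG ratio was 0.94 in the narrow site of Fosb, 0.78 in the wide site of Egr3, 0.63 in the site of Egr4, 0.54 in that of Egr1 and 0.38 in that of Fos.

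**Figure D4:**
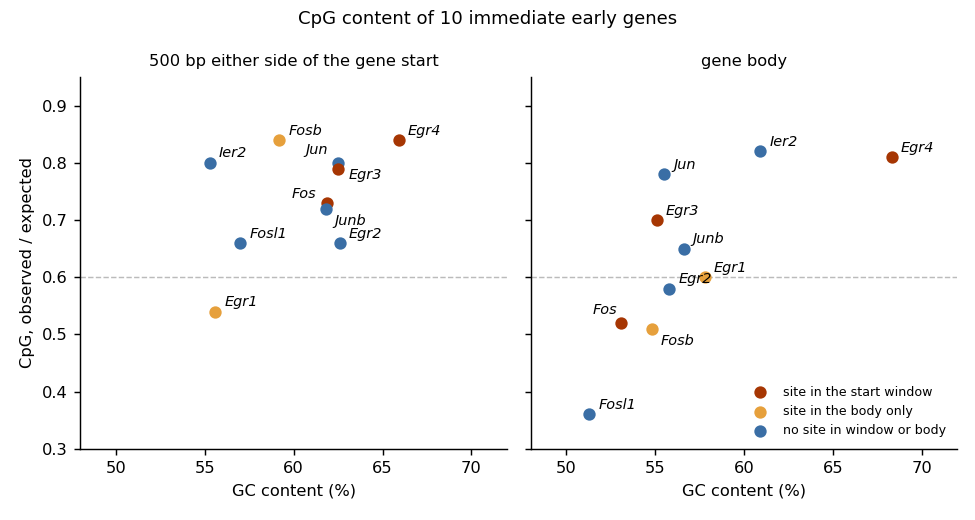
Each point is a gene, placed by GC content in % and by the ratio of observed to expected CpG, for the sequence within 500 bp of the gene start (left) and for the gene body (right), coloured by where a site was listed; the dashed line marks a ratio of 0.6. Genes with and without sites overlap in both panels, and Egr1 at 0.54 is the only promoter under the line.

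Other genes of the same response were read from lists. Among 20 other immediate early transcription factors, 3 (15%) had a site at a start site and 4 (20%) in the body, beside 31.5% and 46.7% of all protein-coding genes, with a median distance of 13040 bp. A site of at least 1 kb was listed there at Atf3, a stress-induced bZIP factor (2884 bp), and at Nr4a3, an orphan nuclear receptor (2587 bp). The nearest relatives of the genes described, Fosl2 and Jund, had no site within 1 kb of a start site, with distances of 47340 and 31637 bp. Jund was the only other gene, of the 88 searched, with a near-identical copy in the assembly over its start.

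Among 20 other immediate early genes that code for no DNA-binding factor, 4 (20%) had a site at a start site and 5 (25%) in the body, beside the same 31.5% and 46.7%, with a median distance of 16680 bp. The sites of at least 1 kb were at Dusp2, a phosphatase of MAP kinases (2072 bp), and at Sgk1, a serum-induced kinase (1387 bp). Among 20 upstream factors and co-regulators, such as the ternary complex factors, CREB family members, MAP kinases and other bZIP proteins, 5 (25%) had a site at a start site, beside 31.5% of all genes, and 12 (60%) in the body, beside 46.7%. Those of at least 1 kb were at Batf (4444 bp) and Batf3 (1499 bp), bZIP partners of JUN proteins known from lymphocytes and dendritic cells.

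As a check of the cell type, 4 of 12 fibroblast markers (33.3%, beside 31.5% of all genes) had a site at a start site. These were Col1a1, Pdgfra, Vim and Lum. A site of at least 1 kb was there at 0 of the 12, beside 20.1% of all genes. Of 16 markers of other cell types, 12 (75%) had a site at a start site, beside the same 31.5%. A site of at least 1 kb was there at 11, beside 20.1%, namely Olig2, Pax6, Neurog1, Gata4, Foxa2, Myod1, Neurod1, Epcam, Spi1, Cdh1 and Gata1. The widest were at Olig2 (33872 bp) and Pax6 (30370 bp). Krt18 had a site of 486 bp there, and Krt8, Ptprc, Cd79a and Myog had none. The widths of 2046 and 2426 bp at Fos and Egr3 were far below the widest of these markers, though above the 1832 bp at Gata1. The 6119 bp at Egr4 lay between 5012 bp at Epcam and 6990 bp at Neurod1.

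**Figure D5:**
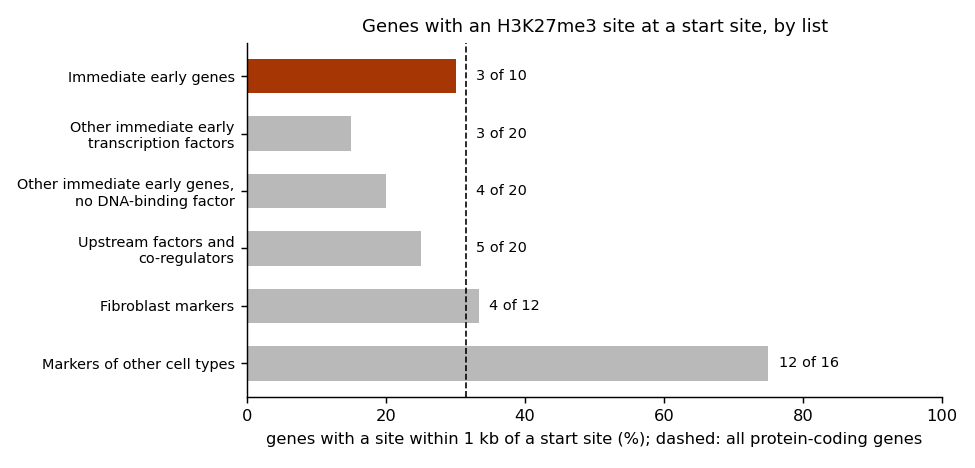
Bars give the share of each list, in %, with an H3K27me3 site within 1 kb of a start site, with the number of genes beside each bar and the share over all protein-coding genes (31.5%) as a dashed line. The 10 immediate early genes are at 30%, the other 2 lists of immediate early genes at 15% and 20%, and markers of other cell types at 75%.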

How the data were processed

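H3K27me3 ChIP-seq was performed in 12 libraries of iMEF cells, with 2 input libraries. The authors used Trim Galore for trimming and BWA for alignment to mm10 (GRCm38.p6), filtered with SAMtools, merged replicates with Picard, normalised to the lowest coverage and called broad peaks with MACS2. Versions and thresholds are not given in the sources used here. The deposited table holds positions only (chromosome, start and end of each site over all samples), with no counts, signal or scores.

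Starts were taken as 0-based and ends as exclusive, and both are printed 1-based. Genes, transcripts and exons were taken from GENCODE M21 (the study used a later release) and sequences from the GRCm38.p6 assembly. Distances run from the nearest annotated start site unless the gene start is named. Copies were searched with minimap2 2.31 over 217 other sequences of the assembly, and sites were intersected in Python 3.11.15. Shares have Wilson 95% intervals. The functions were tested on simulated sites. No test was run, as there are no values per library. All 10 genes are named, and of the other lists those genes with a site of at least 1 kb at a start site. Of the cell type markers, those that went the other way or had a narrower site are named too. Fosl2 and Jund were named as relatives after their values were seen. The genes, lists and measures were chosen with earlier results of these data known. The Egr1 promoter sequence is not reported here.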

Additional observations from a re-analysis of the deposited data

How the results depend on the processing

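Fos, Egr3 and Egr4 had a site at a start site in every setting tried: joining, minimum width, gene start alone, complete transcripts alone, counting of positions, window and overlap. The count of 3 genes became 4 with a window of 2 kb, through Egr1, beside 37.2% of all genes. With a window of 5 kb it became 5, through Egr1 and Fosb, beside 49.2%. The count of 5 genes with a site in the body became 3 with sites of at least 500 bp and 3 with sites of at least 1 kb. These stood beside 29.6% and 23.2% of all genes. The sites of Fosb and Egr1 are narrower than these limits. The median distance of 10380 bp became 23136 bp with sites of at least 500 bp, 26430 bp with sites of at least 1 kb and 4490 bp without Egr2. The median covered share of 1.47% became 0% with sites of at least 500 bp, 0% with sites of at least 1 kb and 2.94% without Egr2. Leaving out Egr2 was chosen after seeing the data.

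Of 70 recomputed distances of single genes, 15 moved, all of them to longer values, with Fos at 856 bp from the gene start alone or with complete transcripts and Egr3 at 111 bp from the gene start alone. The background share of 31.5% at start sites was 24.2% and 20.1% with sites of at least 500 bp and 1 kb, 25.3% with the gene start alone, 27.8% with complete transcripts, 27.8%, 37.2% and 49.2% with windows of 500 bp, 2 kb and 5 kb, and 30.1% with at least 200 bp shared. The background share of 46.7% in bodies was 29.6% and 23.2% with sites of at least 500 bp and 1 kb, 45.7% with complete transcripts and 43.2% without the 1 kb after start sites. No paired analysis was possible because single libraries have no values in the list, nor could a library be left out. The depth behind a site is unknown, so a narrow site and a gap cannot be ranked by reads.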
